A study of Mus musculus with 6 samples.

Results

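The genes described here encode the enzymes that build mucin-type O-glycans and cap glycans with sialic acid or fucose. They were taken by symbol: the polypeptide GalNAc-transferases (Galnt), C1galt1 and its chaperone C1galt1c1, and the Gcnt, B3gnt, B4galt, St3gal, St6gal, St6galnac and Fut transferases. Of 23366 genes in the table, 61 matched, and 33 of these reached at least 1 TPM in at least 3 of the 6 libraries. RNA came from epithelial cells of the submandibular salivary gland of adult mice aged 12 weeks: 3 libraries of p63 knockout and 3 of wild-type animals. The transcription factor p63 (gene Trp63) is known for maintaining the basal layer of epithelia. In the sample titles wild-type library 1 is marked C, and the other wild-type libraries are marked WT. Apart from this, the labels name the genotype only as p63 knockout or wild type. They give no allele, Cre driver or deleted exons, and do not say whether a library is 1 mouse or a pool, so p-values measure only the spread between these libraries, which may be technical. TPM is a transcript abundance corrected for gene length and scaled so that each library sums to 1000000, so it can be compared between genes but keeps no record of sequencing depth.

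Mucins are secreted or membrane proteins with long stretches of serine and threonine that carry dense sugar chains, and they give saliva its viscosity. A Galnt enzyme starts each chain by adding N-acetylgalactosamine, C1galt1 extends it with galactose, and Gcnt and B3gnt enzymes branch or lengthen it. Galactose is added further out by B4galt enzymes, and sialic acid or fucose closes the chain. Sialic acid gives salivary mucins much of their negative charge, and several of these enzymes also act on N-glycans, glycolipids or proteoglycans.

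Trp63 measured 1.59, 0.816 and 1.76 TPM in knockout libraries 1, 2 and 3, against 3.48, 1.85 and 3.68 TPM in wild-type libraries 1, 2 and 3. The groups were apart by a narrow margin between knockout library 3 and wild-type library 2, and transcripts of the gene remained in every knockout library. Its log2 fold change of -0.74 (SE 0.27) did not pass limma's test, described below (adjusted p = 0.27). Knockout library 3 had 10634 genes at 1 TPM or more, against 11129 to 11235 in the other 5 libraries, and its 50 most abundant genes took 80.03% of the TPM, against 68.8% to 75.8%. Without it, 5127 of 11268 genes passed the test described next, against 44 with it, so results are given both ways. Marker sums of some other cell types differed between the groups, and others overlapped. Summed over 18 listed tubule genes, all in the table and 17 tested, the granular convoluted tubule stood at 36306 to 88800 TPM in knockout, against 204262 to 237689 TPM in wild-type libraries. Of these 17 genes, 4 passed the test as lower and 0 as higher in the knockout, and Ren1 was below 0.1 TPM throughout. At an unadjusted p of 0.05, 16 were lower and 1 was higher, where 10.5% and 4.99% of all genes were. The higher gene was Klk1, at 12563, 6315 and 10537 TPM in knockout against 4526, 6390 and 5004 TPM in wild-type libraries. Its groups overlapped and it did not pass (log2 fold change 0.84, limma adjusted p = 0.24). Of 13 listed acinar genes, 11 were in the table and 10 were tested, with no call. Their sum of 189234 to 240205 TPM in knockout and 132716 to 158540 TPM in wild-type libraries was nearly all Prol1 and Pip. The acinar genes Aqp5, Bhlha15, Ano1 and Smr3a overlapped between the groups, with log2 fold changes of -0.08, -0.11, -0.11 and -1.79. Slc12a2 and Lpo overlapped too, at 0.58 and 0.20. Spdef, Pip, Prol1 and Prlr were apart and higher in the knockout, at 1.25, 0.70, 0.48 and 0.34. The median over the 10 tested acinar genes was 0.27. Of the 11 acinar genes in the table, Dcdc2a was below 0.1 TPM in every library. Basal and myoepithelial markers (12 of 14 tested) summed to 165 to 279 TPM against 486 to 582 TPM, and 2 passed as lower. Itgb4 of this list ran the other way (log2 fold change 1.03) and did not pass. Fibroblast markers (11 of 11 tested) summed to 149 to 313 TPM against 311 to 408 TPM, so the sums overlapped. Among them 2 passed as lower, of which Col6a3 reached 1 TPM in wild type only. Macrophage and lymphocyte markers (10 of 16 tested) summed to 118 to 242 TPM against 468 to 554 TPM, with no call. The sums of duct markers (11 of 11 tested) overlapped, at 709 to 1722 TPM against 939 to 1094 TPM. Of these genes Krt7, Krt19, Cftr and Slc9a3 were apart and lower in the knockout, at log2 fold changes of -0.96, -1.61, -0.92 and -0.55. The other duct genes overlapped, and the median over the list was -0.16. The sums of endothelial markers (9 of 10 tested) overlapped too, at 23.7 to 42.1 TPM against 31.5 to 37.2 TPM. Adipocyte markers (9 of 10 tested) overlapped at 46.5 to 268 TPM against 97.1 to 312 TPM. Parotid genes (5 of 10 tested) summed to 55365 to 82433 TPM against 41767 to 45836 TPM, and the sum was mostly Car6. Car6 was apart and higher in the knockout (log2 fold change 0.69). The other tested parotid genes, Amy1, Dnase1, Bpifa2 and Prpmp5, overlapped, at -0.02, -0.002, -2.21 and 0.44. The duct, endothelial, adipocyte and parotid lists held no call. The part of these markers in the results was not tested, and in such bulk samples fewer cells of a type and less RNA per cell cannot be told apart.

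No glycosyltransferase passed the test in either direction. The test was limma's on log2(TPM + 1), fitted over 11268 genes with Benjamini-Hochberg adjustment over all of them and a threshold of 0.05. Over all genes it called 0.39% (0.071% higher, 0.319% lower), and of the 33 measured glycosyltransferases it called 0. At an unadjusted p of 0.05 there were 11 of the 33 (2 higher, 9 lower; 33.3%), where 15.4% of all genes reached that level (4.99% higher, 10.5% lower). The knockout and wild-type values did not overlap for 14 of the 33 (42.4%), with 2 higher and 12 lower in the knockout, where 21.1% of all genes were apart (5.42% higher, 15.6% lower). An exact permutation test of 3 against 3 cannot go below p = 0.1. The median log2 fold change was -0.34 over the 33 genes, and 0.09 over all genes tested. The log2 fold change was above 0 for 9 of the 33 (27.3%) and for 57.4% of all genes. Fut4, St3gal2 and St6galnac6 were measured only through the wild-type libraries, so their lower values in the knockout follow in part from the filter. Without these 3 genes, 11 of 30 were apart (2 higher, 9 lower), 8 of 30 reached an unadjusted p of 0.05 (2 higher, 6 lower) and the median was -0.30. By library, the median against the wild-type mean was -0.19, -0.39 and -0.43 in knockout libraries 1, 2 and 3. The median of all genes was 0.27, 0.24 and -0.29 in the same libraries.

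**Figure D1:**
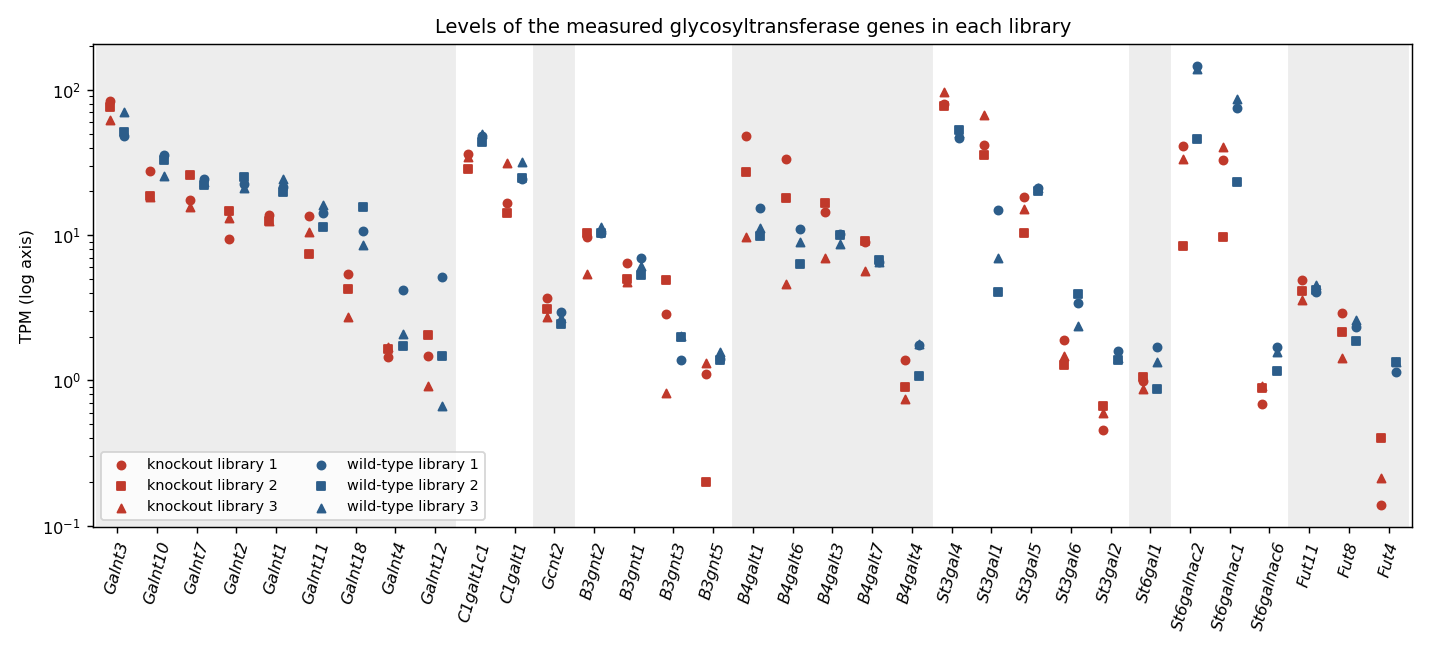
TPM on a log axis of the 33 measured glycosyltransferase genes, ordered by family (grey bands) and then by mean level; each point is 1 library, knockout in red on the left and wild type in blue on the right of each gene. The St3gal1 points of the knockout libraries sit between 35.7 and 67.0 TPM, all above the wild-type points, which sit between 4.09 and 14.9 TPM.

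**Figure D2:**
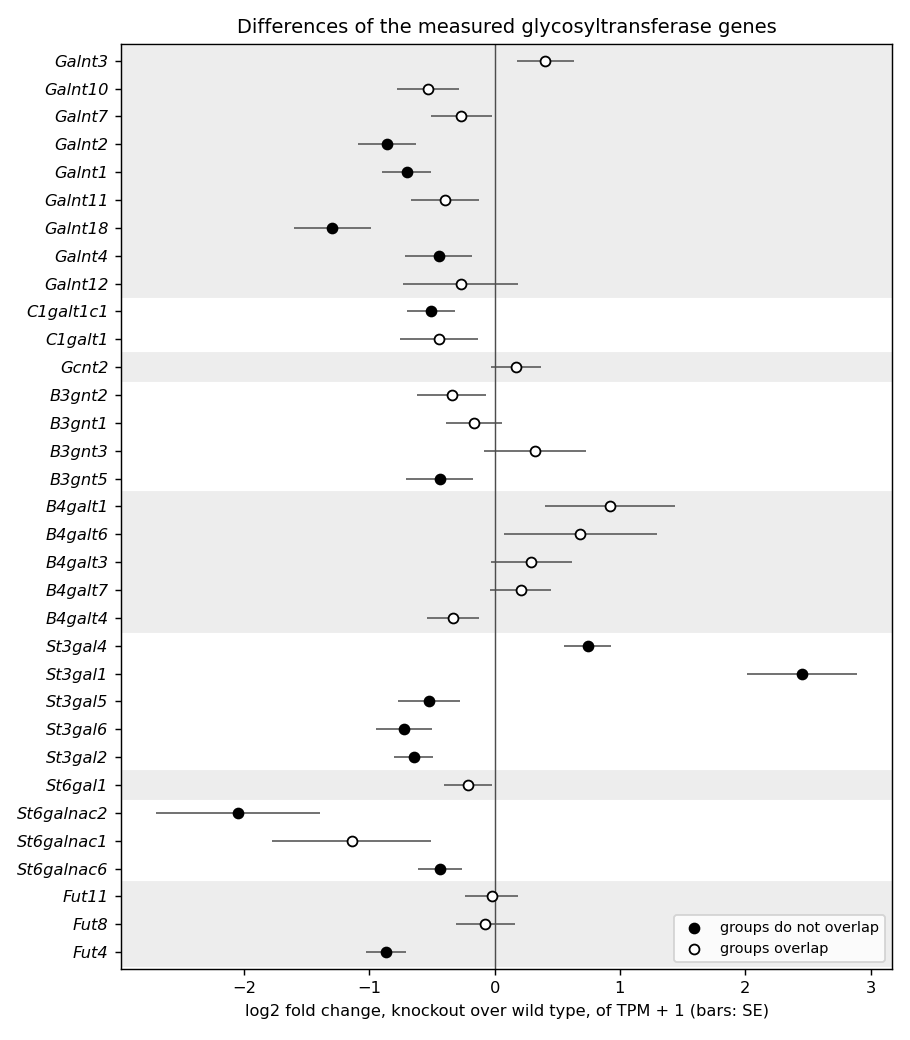
Log2 fold change of TPM + 1, knockout over wild type, for the same 33 genes; bars are standard errors and filled points mark genes whose knockout and wild-type values do not overlap. St3gal1 lies farthest to the right at 2.46 and St6galnac2 farthest to the left at -2.05, and none of the 33 genes passed the test.

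Among the sialyltransferases that act on terminal galactose, St3gal1 and St3gal4 stood higher in every knockout library than in any wild-type library, while St3gal5, St3gal6 and St3gal2 stood lower. RefSeq promoter sequence (GRCm38.p6, 250 bases before to 50 after the start of transcription) was at hand for 21 of the 33 measured genes. Of the St3gal genes apart between the groups, St3gal4, St3gal5 and St3gal6 had a promoter sequence. St3gal6 has 2 windows, with 0 and 5 GC boxes and no p53-family match, and is not printed. The promoters of St3gal4 (chr9:35116815-35117114, minus strand) and St3gal5 (chr6:72097358-72097657, plus strand) are shown as examples whose knockout values lay on opposite sides of wild type. Capitals mark the GC box GGGCGG on either strand and, in St3gal4, 1 match to RRRCWWGYYY, a half-site of the p53-family consensus. R is A or G, W is A or T, and Y is C or T. A full site of paired half-sites was not searched for.
St3gal4: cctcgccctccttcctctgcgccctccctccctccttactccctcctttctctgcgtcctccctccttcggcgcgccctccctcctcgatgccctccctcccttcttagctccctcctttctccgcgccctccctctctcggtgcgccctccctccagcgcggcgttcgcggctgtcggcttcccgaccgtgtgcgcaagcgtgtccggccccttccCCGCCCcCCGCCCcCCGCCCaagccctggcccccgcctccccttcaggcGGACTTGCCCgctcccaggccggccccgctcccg
St3gal5: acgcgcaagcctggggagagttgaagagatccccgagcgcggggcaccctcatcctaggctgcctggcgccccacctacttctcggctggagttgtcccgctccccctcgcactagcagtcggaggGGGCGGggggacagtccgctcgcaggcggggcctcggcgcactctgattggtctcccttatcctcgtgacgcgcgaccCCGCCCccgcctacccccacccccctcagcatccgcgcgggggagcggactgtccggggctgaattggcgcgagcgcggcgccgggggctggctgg
The p53-family match covers bases 17 to 26 after the start of St3gal4, and no match was found in the St3gal5 window. The marked motifs do not overlap each other. The p53-family half-site matched 8.36% of 32851 mouse promoters of this length and 6.67% of 30 promoters of the measured genes. The GC box matched 35.7% and 60.0%. St3gal4 holds 3 GC boxes with 74.0% G and C, and St3gal5 holds 2 with 72.7%. These matches describe the letters only. No binding was measured.

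St3gal1, which sialylates the galactose of the short O-glycan that C1galt1 makes, measured 41.6, 35.7 and 67.0 TPM in knockout libraries 1, 2 and 3, against 14.9, 4.09 and 6.92 TPM in wild-type libraries 1, 2 and 3. Knockout library 3 was the highest and wild-type library 2 the lowest, and the groups did not overlap. The means were 48.1 ± 16.6 TPM and 8.65 ± 5.63 TPM (SD, n = 3 each), a ratio of means of 5.56. The log2 fold change was 2.46 (SE 0.44), which missed the threshold (limma adjusted p = 0.065). Without knockout library 3 it passed at 2.196 (limma adjusted p = 0.0064).

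St3gal4, which sialylates galactose at the ends of lactosamine chains on O- and N-glycans, was the most abundant St3gal gene. It measured 79.99, 76.99 and 96.0 TPM in the knockout libraries, against 46.4, 52.5 and 50.4 TPM in the wild-type libraries. Each group was tight, with means of 84.3 ± 10.2 and 49.8 ± 3.11 TPM (SD, n = 3 each). The log2 fold change of 0.74 (SE 0.19) did not pass (limma adjusted p = 0.12). It passed at 0.65 without knockout library 3 (limma adjusted p = 0.0071).

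The other St3gal genes ran the other way. St3gal5, which makes the ganglioside GM3 and so acts on glycolipids, stood at 18.2, 10.3 and 15.1 TPM in the knockout libraries, against 21.2, 20.2 and 21.1 TPM in the wild-type libraries (log2 fold change -0.53, limma adjusted p = 0.35). St3gal6, an enzyme of lactosamine ends like St3gal4, stood at 1.90, 1.27 and 1.48 TPM against 3.42, 3.95 and 2.35 TPM (log2 fold change -0.72, limma adjusted p = 0.21). Part of its gene overlaps Dcbld2, and the strand setting of the counts was not given, so reads of the pair may not be told apart. St3gal2, which shares the O-glycan acceptor of St3gal1, stood at 0.452 to 0.669 TPM against 1.38 to 1.58 TPM (log2 fold change -0.65, limma adjusted p = 0.11). St3gal3 was under the filter, at 0.426 to 0.491 TPM in the knockout libraries, against 0.876 to 1.21 TPM in the wild-type libraries. Without knockout library 3, St3gal6 (adjusted p = 0.036) passed limma's test and St3gal5 did not (adjusted p = 0.074). St3gal2 entered the test only through the wild-type libraries, so its lower value follows in part from the filter.

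Summed over the 6 St3gal genes, the level was 143, 125 and 181 TPM in knockout libraries 1, 2 and 3, against 88.8, 83.0 and 83.1 TPM in the wild-type libraries. The sums of the groups were apart, and the wild-type sums lay close together. St3gal1 supplied 29.2%, 28.5% and 37.1% of the sum in the knockout libraries, against 16.8%, 4.92% and 8.33% in wild type. The share of St3gal4 overlapped, at 53.2% to 61.4% in the knockout and 52.3% to 63.3% in wild type.

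**Figure D3:**
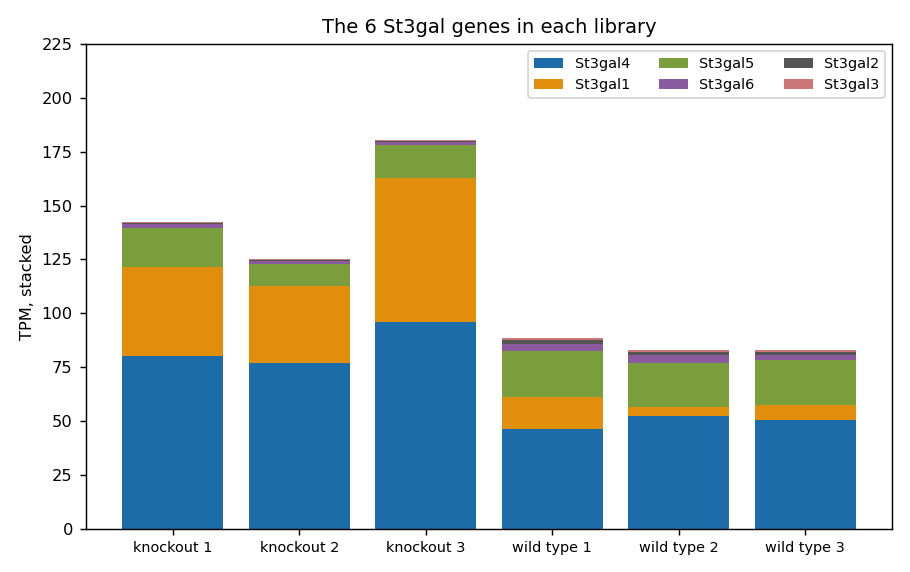
Stacked TPM of the 6 St3gal genes in each library, knockout libraries on the left and wild-type libraries on the right. The knockout bars reach 125 to 181 TPM and the wild-type bars 83.0 to 88.8 TPM; the St3gal4 and St3gal1 segments are taller and the St3gal5 segment is shorter in the knockout bars.

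Among the enzymes that add sialic acid to the inner N-acetylgalactosamine, St6galnac2 had the lowest fold change of the 33 genes. The 2 abundant enzymes, St6galnac1 and St6galnac2, spread widely between libraries. St6galnac2, which acts on O-glycans that already carry galactose, measured 41.3, 8.38 and 33.1 TPM in knockout libraries 1, 2 and 3, against 146, 45.6 and 139 TPM in wild-type libraries 1, 2 and 3. Library 2 was the low one in each group, and the highest knockout value lay just under the lowest wild-type value. The means were 27.6 ± 17.1 TPM and 110.0 ± 55.9 TPM (SD, n = 3 each), with a log2 fold change of -2.05 (SE 0.65) that did not pass (limma adjusted p = 0.21). It passed at -2.31 without knockout library 3 (limma adjusted p = 0.034), and was -1.37 without knockout library 2 (limma adjusted p = 0.40).

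St6galnac1, which sialylates the first sugar of the chain to make sialyl-Tn, measured 32.9, 9.77 and 40.2 TPM in the knockout libraries, against 75.1, 23.2 and 86.8 TPM in the wild-type libraries. Library 2 was again the lowest of each group, and wild-type library 2 lay below 2 knockout libraries, so the groups overlapped. The log2 fold change was -1.14 (SE 0.64, limma adjusted p = 0.40), and -1.51 without knockout library 3 (limma adjusted p = 0.097). Over 18 alternatives it ran from -2.06 to -0.54. St6galnac1 and St6galnac2 lie on chromosome 11 with 0 protein-coding genes between them in RefSeq (GRCm38.p6). St6galnac2 supplied 55.0%, 43.3% and 44.4% of the summed St6galnac TPM in the knockout libraries, against 65.2%, 64.5% and 60.8% in wild type. This share was apart between the groups although the sums themselves overlapped, at 19.4 to 75.1 TPM and 70.6 to 228 TPM.

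The less abundant St6galnac genes had low values in all libraries. St6galnac6, which acts on gangliosides, stood at 0.684 to 0.909 TPM in the knockout and 1.16 to 1.70 TPM in wild type (log2 fold change -0.44, limma adjusted p = 0.30). St6galnac4, under the filter, stood at 0.158 to 0.275 TPM against 0.479 to 0.841 TPM. St6galnac3 stood at 0 to 0.0716 TPM against 0.168 to 0.358 TPM, and St6galnac5 was listed at 0 in 5 libraries and at 0.0632 TPM in knockout library 1. Of the enzymes that put sialic acid on N-glycan ends, St6gal1 stood at 0.992, 1.05 and 0.875 TPM in the knockout and 1.70, 0.876 and 1.35 TPM in wild type. These groups overlapped (log2 fold change -0.21, SE 0.19, limma adjusted p = 0.56). St6gal2 was listed at 0 in all 6 libraries.

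Among the Galnt genes, which start the chains, Galnt3 was the most abundant in every library, and 8 of the 9 measured genes had negative log2 fold changes. Galnt3 measured 84.1, 76.5 and 62.0 TPM in knockout libraries 1, 2 and 3, against 47.8, 50.9 and 70.1 TPM in wild-type libraries 1, 2 and 3. The groups overlapped because wild-type library 3 lay above knockout library 3 (log2 fold change 0.40, SE 0.23, limma adjusted p = 0.40). It took 45.9%, 43.3% and 44.7% of the summed Galnt TPM in the knockout libraries, against 25.4%, 27.9% and 36.3% in wild type, so its share was apart. The summed Galnt level overlapped, at 183, 177 and 139 TPM in the knockout libraries against 188, 182.5 and 193 TPM in wild type.

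Galnt18 had the lowest fold change of the Galnt genes. It measured 5.395, 4.27 and 2.74 TPM in the knockout libraries, against 10.7, 15.6 and 8.598 TPM in the wild-type libraries. Every knockout value lay below every wild-type value, with means of 4.13 ± 1.33 and 11.6 ± 3.60 TPM (SD, n = 3 each). The log2 fold change was -1.29 (SE 0.31, limma adjusted p = 0.11), and -1.08 without knockout library 3, where it passed (limma adjusted p = 0.011).

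Galnt2 and Galnt1, broadly expressed enzymes that act on bare peptide, were also apart. Galnt2 stood at 9.34, 14.5 and 13.1 TPM in the knockout libraries, against 22.5, 24.9 and 21.1 TPM in the wild-type libraries (log2 fold change -0.86, SE 0.23, limma adjusted p = 0.14). Galnt1 stood at 13.8, 12.5 and 12.6 TPM against 21.3, 19.7 and 24.2 TPM (log2 fold change -0.70, SE 0.20, limma adjusted p = 0.16). In both genes every knockout library lay below every wild-type library. Both passed without knockout library 3 (limma adjusted p = 0.0097 for Galnt2 and 0.0091 for Galnt1). Galnt4, an enzyme that prefers peptides already carrying sugar, stood at 1.46 to 1.69 TPM against 1.74 to 4.19 TPM (log2 fold change -0.44, limma adjusted p = 0.43). Its gene lies across Poc1b in RefSeq, and reads of the pair may not be told apart.

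The remaining measured Galnt genes overlapped between the groups. Galnt7 and Galnt10, which also prefer peptides that carry sugar, stood at 15.5 to 26.0 and 18.4 to 27.7 TPM in the knockout libraries, against 22.2 to 24.3 and 25.6 to 35.7 TPM in wild type. Galnt11 stood at 7.42 to 13.6 TPM against 11.3 to 16.1 TPM. Their log2 fold changes lay between -0.53 and -0.26 (limma adjusted p 0.35 to 0.56).

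Galnt12, and B3gnt6 of the B3gnt family, were highest in wild-type library 1, where markers of the neighbouring sublingual gland were highest too. Galnt12 measured 1.48, 2.04 and 0.919 TPM in knockout libraries 1, 2 and 3, against 5.17, 1.48 and 0.661 TPM in wild-type libraries 1, 2 and 3. B3gnt6, which extends the first sugar with N-acetylglucosamine in mucus-making epithelia, stood at 1.97, 0.0588 and 0.132 TPM in the knockout libraries, against 8.56, 0.462 and 0.0688 TPM in wild type. It reached 1 TPM in 2 libraries only and was not tested. The 9 listed sublingual mucous genes, of which 3 were tested, summed to 1857, 18.7 and 19.7 TPM in the knockout libraries and to 10541, 498 and 54.1 TPM in wild type, with Bpifb1 and Muc5b below 0.1 TPM throughout. Knockout library 2 had the highest Galnt12 among knockout libraries but not the highest marker sum. The part of these markers in the values was not tested.

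Galnt15 lay just under the filter and had an uneven pattern. It measured 7.39, 12.4 and 0.803 TPM in knockout libraries 1, 2 and 3, against 0.445, 0.817 and 0.626 TPM in the wild-type libraries. Knockout library 3 lay within the wild-type range and the other knockout libraries far above it, so the groups overlapped. Galnt5, Galnt6 and Galnt16 stayed at 0.892 TPM or less, and Galnt9, Galnt13 and Galnt14 at 0.132 TPM or less, in every library. Among genes near the filter, St6gal1 and Fut4 entered with 3 libraries at 1 TPM, while B3gnt8 (0.420 to 0.782 TPM in the knockout, 0.872 to 1.30 TPM in wild type) stayed out with 2.

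C1galt1, the enzyme that adds the first galactose, and C1galt1c1, the chaperone without which it is not folded, both averaged lower in the knockout. C1galt1c1 measured 36.3, 28.4 and 34.4 TPM in the knockout libraries, against 48.2, 43.8 and 49.8 TPM in the wild-type libraries. The groups were apart, with means of 33.0 ± 4.13 and 47.3 ± 3.09 TPM (SD, n = 3 each). The log2 fold change was -0.51 (SE 0.19, limma adjusted p = 0.28), and -0.54 without knockout library 3, where it passed (limma adjusted p = 0.026). C1galt1 measured 16.6, 14.2 and 31.2 TPM in the knockout libraries, against 24.5, 24.9 and 31.8 TPM in wild type. Knockout library 3 lay among the wild-type values here, and the other knockout libraries lay below them (log2 fold change -0.44, SE 0.31, limma adjusted p = 0.47). Without knockout library 3 the log2 fold change was -0.77 (limma adjusted p = 0.0095).

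The B4galt genes, which add galactose to N-acetylglucosamine or other acceptors, split the knockout libraries. B4galt1, which builds lactosamine and lactose, measured 48.0, 27.0 and 9.64 TPM in knockout libraries 1, 2 and 3, against 15.3, 9.83 and 11.2 TPM in wild-type libraries 1, 2 and 3. Knockout library 3 was the lowest of all 6 and knockout library 1 the highest. The means of 28.2 ± 19.2 and 12.1 ± 2.86 TPM (SD, n = 3 each) therefore differed by less than the spread in the knockout, at a log2 fold change of 0.92 (SE 0.52, limma adjusted p = 0.40). It was 1.52 without knockout library 3 and passed (limma adjusted p = 0.0050), and 0.42 without knockout library 1 (limma adjusted p = 0.80).

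The same order of knockout libraries held for B4galt6, which makes lactosylceramide, at 33.3, 18.05 and 4.64 TPM in the knockout libraries against 11.05, 6.35 and 8.997 TPM in wild type. B4galt3 stood at 14.4, 16.7 and 6.98 TPM against 10.1, 9.98 and 8.64 TPM. B4galt7, which adds galactose to the xylose of proteoglycan linkers, stood at 8.94, 9.15 and 5.70 TPM against 6.53, 6.72 and 6.53 TPM. In each of these genes knockout library 3 was the lowest of the 6 libraries and the other knockout libraries were the 2 highest. Without knockout library 3, B4galt6, B4galt3 and B4galt7 passed as higher (limma adjusted p = 0.0088, 0.011 and 0.041), whereas with it their log2 fold changes were 0.69, 0.29 and 0.21 (limma adjusted p 0.56 to 0.65). B4galt4 stood at 0.750 to 1.37 TPM in the knockout and 1.07 to 1.77 TPM in wild type, overlapping. B4galt2 and B4galt5 were under the filter, at 0.138 to 0.281 TPM in the knockout and 0.258 to 0.551 TPM in wild type.

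**Figure D4:**
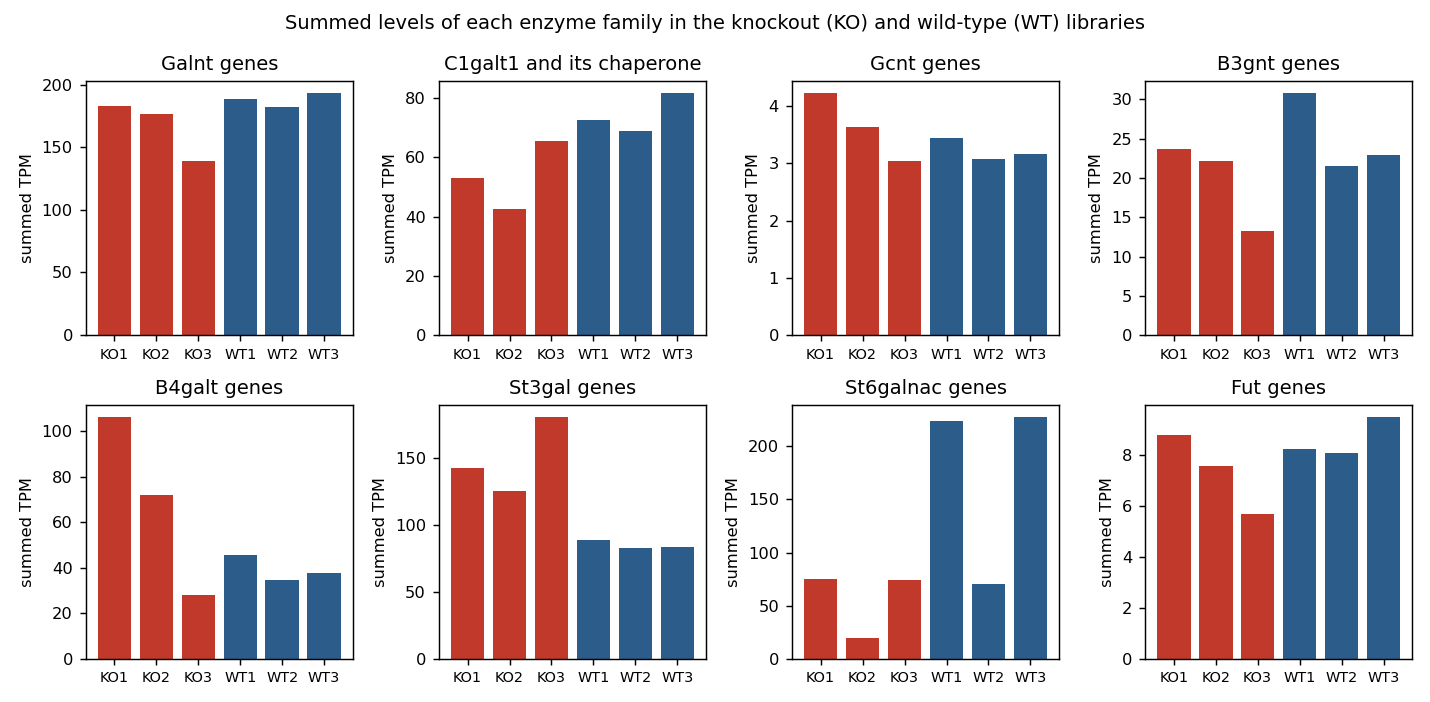
Summed TPM of each enzyme family per library, knockout libraries in red on the left and wild-type libraries in blue on the right; each panel has its own axis from 0, and St6gal is left out because its sums stay under 2 TPM. The St3gal bars are all higher and the C1galt1 bars all lower in the knockout, while the B4galt bars run from 28.1 to 106 TPM in the knockout and from 34.8 to 45.7 TPM in wild type.

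Among the enzymes that branch and lengthen chains, the groups overlapped for 4 of the 5 genes measured. Of the B3gnt genes, B3gnt2, which builds polylactosamine, was the most abundant at 9.73, 10.4 and 5.39 TPM in the knockout libraries, against 10.4, 10.3 and 11.3 TPM in the wild-type libraries. Knockout library 3 alone stood apart from the others (log2 fold change -0.34, SE 0.27, limma adjusted p = 0.52). B3gnt3, which extends the galactose that C1galt1 adds, stood at 2.88, 4.93 and 0.820 TPM against 1.38, 1.98 and 2.01 TPM. Its log2 fold change was 0.32 (limma adjusted p = 0.68), and 0.79 without knockout library 3, where it passed (limma adjusted p = 0.028). B3gnt5, which starts lacto-series glycolipids, stood at 1.11, 0.200 and 1.32 TPM against 1.40, 1.37 and 1.57 TPM, apart between the groups (log2 fold change -0.44, limma adjusted p = 0.43). The symbol B3gnt1 is given in RefSeq as an older name of both B3gnt2 and B4gat1, so no role is assigned to it. It stood at 4.77 to 6.45 TPM against 5.34 to 7.001 TPM. B3gnt4, B3gnt7 and B3gnt9 stayed at 0.783 TPM or less.

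Of the Gcnt genes, Gcnt2, which branches polylactosamine, was the 1 measured. It stood at 3.71, 3.10 and 2.72 TPM in the knockout libraries, against 2.96, 2.45 and 2.68 TPM in the wild-type libraries, with overlap (log2 fold change 0.17, SE 0.20, limma adjusted p = 0.66). Gcnt1, Gcnt3 and Gcnt4, the branching enzymes of O-glycans themselves, stood at 0.414 TPM or less in every library, and Gcnt7 at 0.185 TPM or less.

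Among the fucosyltransferases, Fut4 was apart between the groups and the others overlapped where measured. Fut4, which adds the fucose of the Lewis x structure and is known from white blood cells, measured 0.138, 0.399 and 0.214 TPM in the knockout libraries, against 1.14, 1.34 and 1.33 TPM in wild type. Its log2 fold change of -0.87 (SE 0.16) did not pass (limma adjusted p = 0.066) and is understated by the pseudocount of 1 TPM at such levels. Fut4 entered the test only through the wild-type libraries, so this difference follows in part from the filter. Of 10 tested macrophage and lymphocyte markers, 9 were lower and 0 higher at an unadjusted p of 0.05, where 10.5% of all genes were lower. Their median log2 fold change was -1.19. Among them Ptprc stood at 1.39 to 1.60 TPM in the knockout and 2.13 to 3.05 TPM in wild type. The myeloid genes S100a8 (1.199 to 7.45 TPM against 0 to 0.886 TPM) and S100a9 (1.28 to 5.70 TPM against 0.420 to 0.667 TPM), of another list, stood higher in the knockout. None of these genes passed, and the part of such cells in the Fut4 values was not tested. Fut11, the most abundant of the family, stood at 4.87, 4.14 and 3.56 TPM against 4.05, 4.19 and 4.53 TPM (log2 fold change -0.02, SE 0.21, limma adjusted p = 0.96). Fut8, which fucosylates the core of N-glycans, stood at 1.42 to 2.89 TPM against 1.87 to 2.62 TPM (log2 fold change -0.07, limma adjusted p = 0.88). Fut1, Fut2, Fut7, Fut9 and Fut10 stayed at 0.543 TPM or less. Fut1 and Fut2 make the H antigen, and Fut7 and Fut9 act in Lewis structures.

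The position of knockout library 3 varied by gene. In St3gal1, St3gal4, Galnt1, Galnt2, Galnt18 and C1galt1c1 all 3 lay on the same side of wild type. In B4galt1, B4galt3, B4galt6, B4galt7 and B3gnt3, knockout library 3 lay below all wild-type libraries while knockout libraries 1 and 2 lay above them. Without knockout library 3, 16 of the 33 genes passed limma's test (48.5%, 7 higher and 9 lower), where 45.5% of all genes passed (33.8% higher, 11.7% lower). The share of the 33 genes called was near that background, and of the 30 measured in both groups 14 passed (46.7%). Array weights, which gave that library the least weight, let 18 of the 33 pass (54.5%, 6 higher and 12 lower; 16 of the 30 measured in both groups), where 42.8% of all genes passed (30.9% higher, 11.9% lower).

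**Figure D5:**
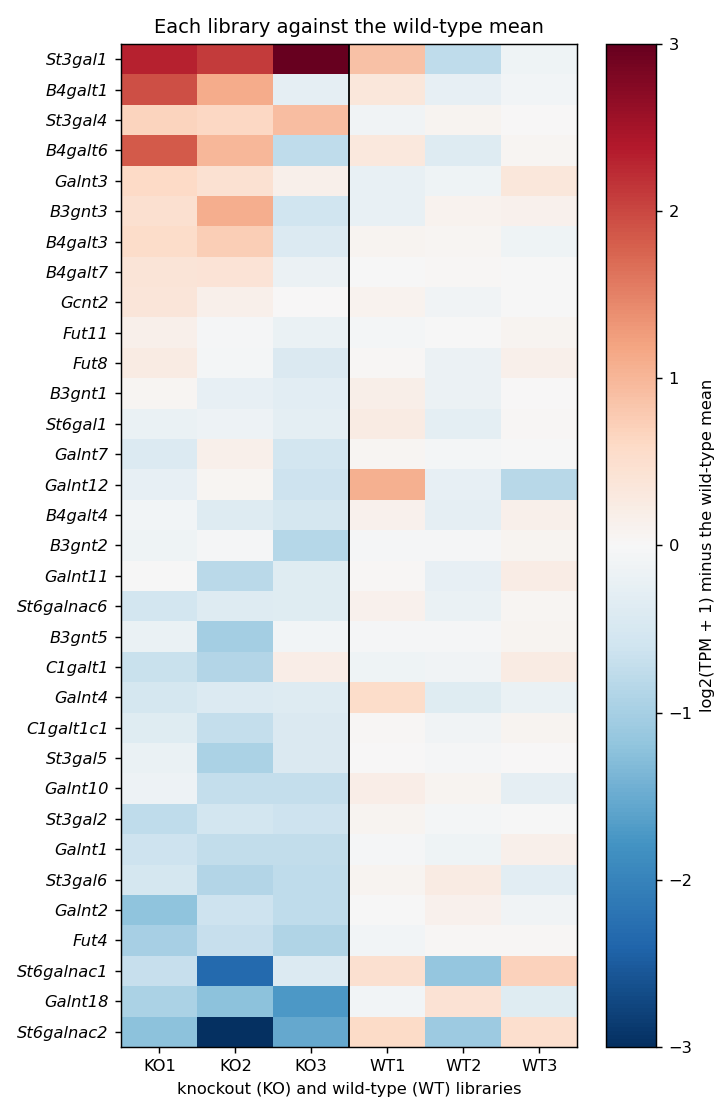
Heat map of log2(TPM + 1) minus the wild-type mean for the 33 measured genes (rows, ordered by fold change) in each library (columns, knockout on the left, wild type on the right of the line); red is above and blue below the wild-type mean, and colours stop at 3 and -3. St3gal1 is red in all knockout columns, B4galt1 and B4galt6 are red in knockout libraries 1 and 2 and blue in knockout library 3, and St6galnac1 and St6galnac2 are blue in wild-type library 2 as well.

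The genes that supply these enzymes were measured in lists, and none passed. Of 12 tested genes of sialic acid metabolism, 0 passed (4 at an unadjusted p of 0.05, 3 higher and 1 lower) and the median log2 fold change was -0.02. Over all genes, 15.4% reached that level (4.99% higher, 10.5% lower) and the median was 0.09, which is also the background for the lists that follow. Gne, the enzyme that starts sialic acid synthesis, stood at 101, 64.1 and 71.6 TPM in the knockout libraries, against 48.8, 37.7 and 34.7 TPM in the wild-type libraries, with the groups apart (log2 fold change 0.94, SE 0.24, limma adjusted p = 0.14). Cmas, which activates sialic acid to the form the transferases use, ran the other way, at 32.3, 39.6 and 86.1 TPM against 126, 98.5 and 128 TPM (log2 fold change -1.26, SE 0.36, limma adjusted p = 0.16). Slc17a5, the lysosomal exporter of sialic acid, stood at 76.2, 55.2 and 19.7 TPM against 19.9, 17.6 and 19.8 TPM (log2 fold change 1.16, limma adjusted p = 0.29). Gne, Cmas and Slc17a5 were chosen after their values were seen.

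Of 22 tested genes of nucleotide sugar supply, 0 passed (3 at an unadjusted p of 0.05, all lower, where 10.5% of all genes were) and the median was -0.10. Gmppb, which makes GDP-mannose, stood at 6.99, 11.9 and 36.6 TPM in the knockout libraries, against 37.5, 36.0 and 32.6 TPM in wild type (log2 fold change -1.21, SE 0.51, limma adjusted p = 0.32). Knockout library 3 stood within the wild-type range and the other knockout libraries below it. Gmppb was chosen after its values were seen.

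The mucins that carry these chains were led by Prol1, the gene also named Muc10 that encodes the mucin of the mouse submandibular gland. It measured 110174, 144115 and 85790 TPM in the knockout libraries, against 68796, 85772 and 84645 TPM in the wild-type libraries. The groups were apart by a narrow margin between knockout library 3 and wild-type library 2 (log2 fold change 0.48, SE 0.24, limma adjusted p = 0.37). Muc13, a membrane mucin, stood at 49.9, 38.9 and 62.2 TPM against 89.2, 75.3 and 81.5 TPM (log2 fold change -0.71, limma adjusted p = 0.21). Of 12 tested mucins and mucin-like genes 0 passed (4 at an unadjusted p of 0.05, all lower, where 10.5% of all genes were), with a median of -0.45. The 2 with the largest fold change were the vascular genes Cd34 (-0.83, limma adjusted p = 0.16) and Emcn (-0.78, limma adjusted p = 0.15). Prol1 and Muc13 were chosen after their values were seen.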

How the data were processed

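Gene expression was measured by RNA-seq, with 1 library per sample. The authors deposited TPM, derived per the labels from read counts with a correction for depth and length. TopHat2 2.1.1, Bowtie2 2.2.6, DESeq2 1.20.0, featureCounts 1.5.1 and mm9 are named in the submitters' processing notes. Not given in the sources used here: annotation, gene lengths, strand setting and depth. TPM gives no counting error or detection limit.

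Genotype labels gave the groups. Replicate numbers follow accession order and were not used to pair libraries in the main test. Libraries of the same number have neighbouring index numbers in their titles, but the labels state no pairing. Values were transformed to log2(TPM + 1), and genes with at least 1 TPM in 3 libraries were tested with limma 3.58.1 (mean-variance trend) in R 4.3.3. Low genes therefore have fold changes that are too small. Symbols were matched to RefSeq (GRCm38.p6) for 60 of 61 genes, for names, gene neighbours and promoters only, since the values rest on mm9. Figures used matplotlib 3.10.9.

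The genes and lists were chosen with earlier results of these data known. Library values were given for genes that passed, genes apart with an absolute log2 fold change of at least 1, and the most abundant gene of each family. Values of other genes were added after they were seen. Alternatives were other pseudocounts, filters, scalings and moderation, array weights, a block for neighbouring index numbers, and leaving out libraries.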

Additional observations from a re-analysis of the deposited data

How the results depend on the processing

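No glycosyltransferase passed limma's test in 15 of the 18 alternatives. The exceptions were array weights (18 genes, 6 higher and 12 lower), the fit without knockout library 3 (16) and the replicate block for libraries with neighbouring index numbers (1, St6galnac2, adjusted p = 0.032), so the range over fits that leave out libraries was 0 to 16. Labels state no such pairing. The deviations of index neighbours correlated at 0.167, 0.232 and 0.077, each library correlating best with its neighbour, which is a hint from the data only. Over all genes the 44 calls became 25 with a pseudocount of 0.1 TPM, 11 with no filter, 29 with the 5 TPM filter, 73 with median-of-ratios scaling, 72 with quantile normalization, 106 after rescaling without the 50 most abundant genes and 4822 with array weights. Leaving out 1 library gave 0 to 5127 calls (1, 0 and 0 without wild-type libraries 1, 2 and 3, with 879, 1024 and 1020 genes at an unadjusted p of 0.05; 11, 16 and 5127 without knockout libraries 1, 2 and 3), and 20 were called when knockout 1, wild-type 1 and wild-type 2 were all dropped. The median of the glycosyltransferases kept its sign throughout, from -0.46 to -0.24 when libraries were left out and -0.15 without a filter, where 60 genes enter. The split of 9 above and 24 below 0 was the same under all 3 other scalings. Fut11 changed sign with array weights (0.0169) and ran from -0.191 to 0.0649 over the fits that leave out libraries (0.0124 without wild-type library 3). Galnt3 ran from -0.0242 to 0.5688, below 0 only without 3 libraries (knockout 1, wild-type 1 and 2). The cause was not tested. TPM keeps no depth, so how far low genes are limited by counting is unknown.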

Other observations

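Of the other glycan genes listed, which are named here after their values were seen, none passed limma's test over all genes. Over all genes 15.4% reached an unadjusted p of 0.05 (4.99% higher, 10.5% lower), with a median log2 fold change of 0.09. Of 14 tested genes of N-glycan processing 0 passed (4 at an unadjusted p of 0.05, all lower), and of 18 Golgi trafficking genes 0 passed (1 at an unadjusted p of 0.05, lower). Of 6 tested carbohydrate sulfotransferase genes 0 passed (2 at an unadjusted p of 0.05, both lower), with a median log2 fold change of -0.39. Of 14 tested transferases outside the symbols used here, 0 passed (2 at an unadjusted p of 0.05, both lower). Abo, the blood group transferase, stood at 7.74, 4.65 and 4.49 TPM in the knockout libraries, against 12.3, 11.9 and 11.6 TPM in the wild-type libraries (log2 fold change -0.999, limma adjusted p = 0.12). Man1c1, a Golgi mannosidase of N-glycans, stood at 44.5, 40.4 and 6.32 TPM in the knockout libraries, against 10.7, 6.95 and 7.42 TPM in wild type, with knockout library 3 lowest of all. The polysialic acid and disialyl transferases St8sia1 to St8sia6 were all under the filter.

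Of 9 tested lectin genes, which encode proteins that bind glycans, 0 passed (5 at an unadjusted p of 0.05, all lower, where 10.5% of all genes were), with a median of -0.74, against 0.09 over all genes. Lgals1, encoding galectin-1, stood at 13.7, 9.04 and 23.1 TPM in the knockout libraries, against 49.95, 42.4 and 30.7 TPM in wild type (log2 fold change -1.43, limma adjusted p = 0.12). Siglech, a sialic acid binding receptor of plasmacytoid dendritic cells, stood at 0.263, 0.145 and 0.131 TPM in the knockout libraries, against 2.85, 1.54 and 1.43 TPM in wild type (log2 fold change -1.29, limma adjusted p = 0.059). It entered the test only through the wild-type libraries, so its lower value follows in part from the filter. Macrophage and lymphocyte markers summed to 118 to 242 TPM in the knockout libraries, against 468 to 554 TPM in wild type, and their part in these values was not tested.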
